A study of Mus musculus with 121 samples.

Results

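The comparison covered 6 of the 62 RNA-seq libraries of a study of metabolic cycles and the circadian clock in cultured fibroblasts. The cells were the Per2::Luc line, immortalized ear fibroblasts of knock-in mice with the genotype PER2::LUC sv, in which luciferase is fused to the clock protein PER2. All groups that were sequenced carried this reporter and came from this 1 line, grown in microfluidic chambers. The HL protocol imitates feeding followed by fasting. Each of 3 daily cycles gave 12 h of a medium high in glucose and insulin (H). Then came 12 h of a medium low in glucose and without insulin (L). LH cells received the reverse order and HH cells received H medium throughout, as in feeding ad libitum. After 12 h of free-running, RNA was collected 6 times at 4 h intervals and sequenced by 3′DGE, a method that reads the 3′ ends of transcripts.

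The libraries at issue were chosen by number. The deposited count files are named by library number, and the study's read summary gives a sample name for each number. By that summary, 3 of the libraries are HL, collection 3, replicates 1, 2 and 4, and the other 3 are HL, collection 6, replicates 1, 2 and 3. Counted from the first collection, these sets were taken at 8 h and 20 h, that is 12 h apart, and they are called here by those times. The names also carry a time field. In the read summary it is 4 for the 8 h set and 16 for the 20 h set, while in the titles it is 16, 20 and 20 for the 8 h replicates 1, 2 and 4 and 16 for the 20 h replicates. Collections 2 and 5 share the value 12 in this field, and times were therefore counted from the collection number. The titles of the deposited samples give the same 6 libraries another name. By title, the 8 h replicates 1, 2 and 4 are LH libraries, 1 from collection 3 and 2 from collection 4, and the 20 h replicates are all LH libraries of collection 6. Titles and read summary give the same protocol and collection for 22 of the 62 libraries of the series and a different one for 35, and the read summary does not list the other 5. Every statement about HL by number below depends on the read summary being right. The question was which genes differ between opposite times of day in HL under this naming, and how the same contrast looks in the HH libraries, whose names are not in dispute.

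In mammalian cells the clock is a loop of transcription factors. BMAL1 (gene Arntl) and CLOCK activate genes through E-box elements, among them the period (Per) and cryptochrome (Cry) genes, whose proteins return to the nucleus and repress their activators. A second loop is formed by the nuclear receptors REV-ERBα and REV-ERBβ (Nr1d1 and Nr1d2), which repress, and the ROR receptors, which activate, Arntl and other genes from the same elements. The PAR bZIP factors DBP, TEF and HLF and their antagonist NFIL3 pass the rhythm on to output genes through D-boxes.

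The 6 libraries held 4041518 to 6454806 counts with both sequencing runs summed, and levels are given in CPM, counts scaled to a library total of 1000000. A level of 1 CPM thus stood for 4.04 to 6.45 counts. The smallest total was that of 20 h replicate 2, which the read summary marks as removed and whose second run held 37262 counts. The shares of the libraries' counts taken by mitochondrial genes were 1.72% to 2.01% at 8 h and 2.15% to 2.88% at 20 h. The libraries had the make-up of fibroblasts. Of the 10 fibroblast markers all were detected in all 6 libraries, with Col1a2, a chain of type I collagen, at 10170 to 17410 CPM and Vim, vimentin, at 1653 to 2409 CPM. Most markers of other cell types were low, with the endothelial marker Kdr as an exception. The 10 macrophage and leukocyte markers summed to 20.1, 20.2 and 39.5 CPM in 8 h replicates 1, 2 and 4 and to 17.7 to 35.1 CPM at 20 h. The 7 epithelial markers summed to 1.55 to 2.84 CPM at 8 h and 1.62 to 3.29 CPM at 20 h. The epithelial keratins Krt5 and Krt14 had no count. Of the 7 skeletal muscle markers 5 had no count (Myh3, Myog, Myod1, Des and Ckm), and most of their sum of 1.599 to 4.18 CPM at 8 h and 6.01 to 9.40 CPM at 20 h was Ttn. Among the 6 endothelial markers Emcn had no count, Pecam1, Cdh5, Tek and Vwf were at or below 1.49 CPM in every library, and Kdr was at 133.6 to 220.8 CPM. The endothelial sum, at 133.6 to 194.3 CPM at 8 h and 199.0 to 221.0 CPM at 20 h, and the muscle sum were thus lower at 8 h without overlap. Their part in the results was not tested.

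The library taken as 8 h replicate 4 stood apart from the other 5. The correlation of its log CPM with the others was 0.921 to 0.936, against 0.953 to 0.964 among the others. Of its uniquely aligned reads 28.9% lay on no gene, against 19.5% to 22.8% in the others. Of 5936 genes with a mean of at least 20 CPM, 394 differed more than 2-fold from the median of the other libraries, 329 of them lower, whereas the other libraries had 4 to 30 such genes. The deviation of 8 h replicate 4 varied with transcript length. When the genes were divided by the length of their annotated transcripts into 4 classes of equal size, the class of the longest, over 5325 bases, had a median log2 difference of this library from the median of the others of -0.31, and the class of the shortest, up to 2358 bases, had 0.16. In the other 5 libraries the medians of the classes ran from -0.17 to 0.094. Myh9, non-muscle myosin heavy chain, stood at 149.8 CPM in 8 h replicate 4 and at 541.3 to 643.8 CPM in the others, and the nuclear RNA Malat1 at 15390 CPM against 5399 to 9080 CPM. These 2 genes were picked after their values were seen. The main counts are therefore given with and without this library.

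**Figure D1:**
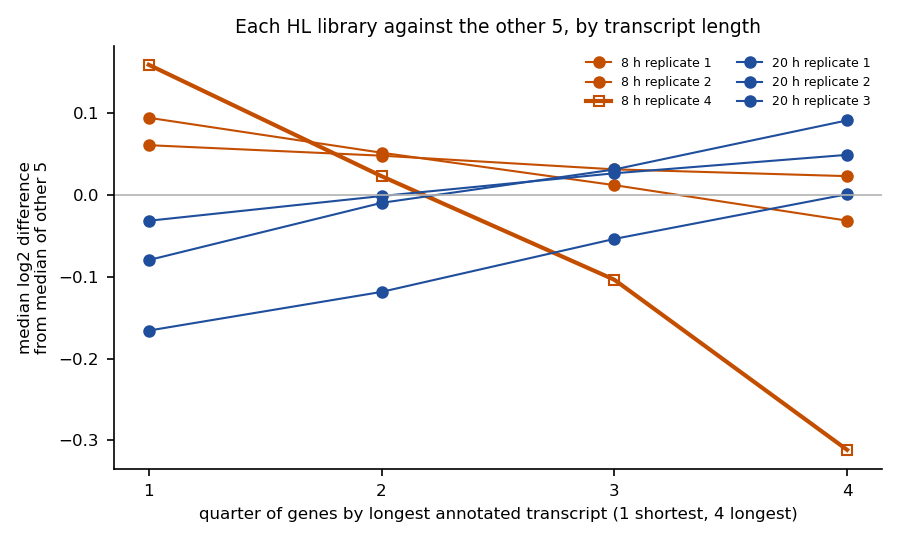
Median log2 difference of each of the 6 HL libraries by number from the median of the other 5 (y axis), over 4 classes of equal size of 5933 genes ordered by the length of the longest annotated transcript (x axis). The line of 8 h replicate 4, with open squares, falls from 0.16 in the shortest to -0.31 in the longest class, while the other lines stay between -0.17 and 0.094.

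Of 11378 genes that reached 1 CPM in 3 or more of the 6 libraries, 5 differed between 8 h and 20 h (edgeR's quasi-likelihood test, Benjamini-Hochberg adjusted p under 0.05), which is 0.0439% of the genes tested. Below, passing with all 6 libraries refers to this main fit, and alternative fits are named where they are used. Nr1d1, Dbp, Nr1d2 and Bhlhe41 were higher at 8 h (4 genes, 0.0352%) and Cry1 was higher at 20 h (1 gene, 0.00879%). All 5 belonged to the 37 genes of the 5 clock lists, of which 34 were tested. At an unadjusted p of 0.05, 990 genes passed. The groups of libraries did not overlap for 1082 genes higher at 8 h (9.51%) and 717 genes higher at 20 h (6.3%). The study's methods describe its replicates as biological. The labels do not say which libraries came from separate cultures of the line, and the p-values measure the spread between these libraries. Without 8 h replicate 4, 89 of 11175 genes passed (0.796%), 42 higher at 8 h (0.376%) and 47 higher at 20 h (0.421%). All 5 clock genes were among the 89, and Tef, Nfil3 and Hlf joined them. Without 20 h replicate 2, the library marked as removed, 2 genes passed, Nr1d1 and Dbp, both higher at 8 h.

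Among the clock repressors, the gene with the largest difference was Nr1d1 (ENSMUSG00000020889, chromosome 11, 98767932 to 98775333 in GRCm38, minus strand). It stood at 156.0, 209.7 and 119.2 CPM in 8 h replicates 1, 2 and 4 and at 7.67, 5.44 and 7.80 CPM in 20 h replicates 1, 2 and 3. The lowest 8 h library was far above the highest 20 h library, and 8 h replicate 4 was the lowest of its set. The means were 161.7 ± 45.5 CPM (SD, n = 3) and 6.97 ± 1.32 CPM (SD, n = 3), with a log2 fold change of 8 h over 20 h of 4.49 (standard error 0.25, adjusted p = 2.4e-06, edgeR's quasi-likelihood test). Without 8 h replicate 4 the log2 fold change was 4.66. The last 1075 bases of Nr1d1 overlap the 3′ end of Thra, a thyroid hormone receptor gene on the other strand, and the strand setting of the counting is not given in the sources used here. Thra itself stood at 482.1, 470.6 and 438.9 CPM at 8 h and at 417.0, 392.7 and 433.8 CPM at 20 h. Its log2 fold change was 0.14 (standard error 0.14, adjusted p = 0.814 in the same test), and its sets did not overlap. The part of Thra in the Nr1d1 values was not tested.

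Nr1d2, which encodes REV-ERBβ (ENSMUSG00000021775, chromosome 14, 18204054 to 18239127, minus strand), stood at 115.4, 89.9 and 72.0 CPM at 8 h and at 20.3, 19.8 and 29.6 CPM at 20 h. All 8 h libraries were above all 20 h libraries. The log2 fold change was 1.96 (standard error 0.22, adjusted p = 0.00297, edgeR's quasi-likelihood test). Bhlhe41, also called DEC2, a repressor that binds E-boxes (ENSMUSG00000030256, chromosome 6, 145858243 to 145865558, minus strand), was at 32.1, 33.1 and 24.0 CPM at 8 h and at 7.48, 3.71 and 8.77 CPM at 20 h. Again the sets did not overlap, and the log2 fold change was 2.11 (standard error 0.29, adjusted p = 0.0158, edgeR's quasi-likelihood test). Cry1, the repressor that acts late in the cycle (ENSMUSG00000020038, chromosome 10, 85131700 to 85185064, minus strand), ran the other way. It stood at 6.97, 10.3 and 9.24 CPM at 8 h and at 28.8, 25.2 and 31.7 CPM at 20 h, without overlap. The log2 fold change was -1.72 (standard error 0.23, adjusted p = 0.0158, edgeR's quasi-likelihood test). Bhlhe41 and Cry1 lost the call in 5 of the 6 fits that left out 1 library, at adjusted p of 0.0592 to 0.178 with log2 fold changes of 1.87 to 2.34 for Bhlhe41 and -1.84 to -1.57 for Cry1. The exception was the fit without 8 h replicate 4. Nr1d2 lost it without 20 h replicate 1 (adjusted p = 0.0807) and without 20 h replicate 2 (adjusted p = 0.0958), and Nr1d1 and Dbp in none of the 6.

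The other 6 repressors did not pass. Per3 had 13.6, 9.23 and 12.4 CPM at 8 h and 4.38, 5.69 and 6.50 CPM at 20 h, with no overlap (log2 fold change 1.07, standard error 0.33, adjusted p = 0.406, edgeR's quasi-likelihood test). Ciart, a transcriptional repressor also known as CHRONO, had 25, 18 and 9 counts at 8 h and 0, 2 and 5 counts at 20 h. At this depth its level at 20 h is not resolved, since 3 counts, the upper limit that a count of 0 allows, correspond to 0.547 CPM in 20 h replicate 1, and its fitted log2 fold change of 2.62 (adjusted p = 0.417) depends on the prior count. The intervals of the rest were wide. Per1 and Per2, the period genes that respond most directly to signals from outside the cell, had log2 fold changes of 0.22 (standard error 0.42) and 0.52 (standard error 0.58), with 3.71 to 14.5 CPM and 1.14 to 6.10 CPM over the 6 libraries. Cry2 was at -0.07 (standard error 0.27) and Bhlhe40 (DEC1) at 0.69 (standard error 0.37), and their adjusted p by that test were 0.965 and 0.626. The 10 repressors had a median log2 fold change of 0.88, beside 0.0024 for all genes tested.

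**Figure D2:**
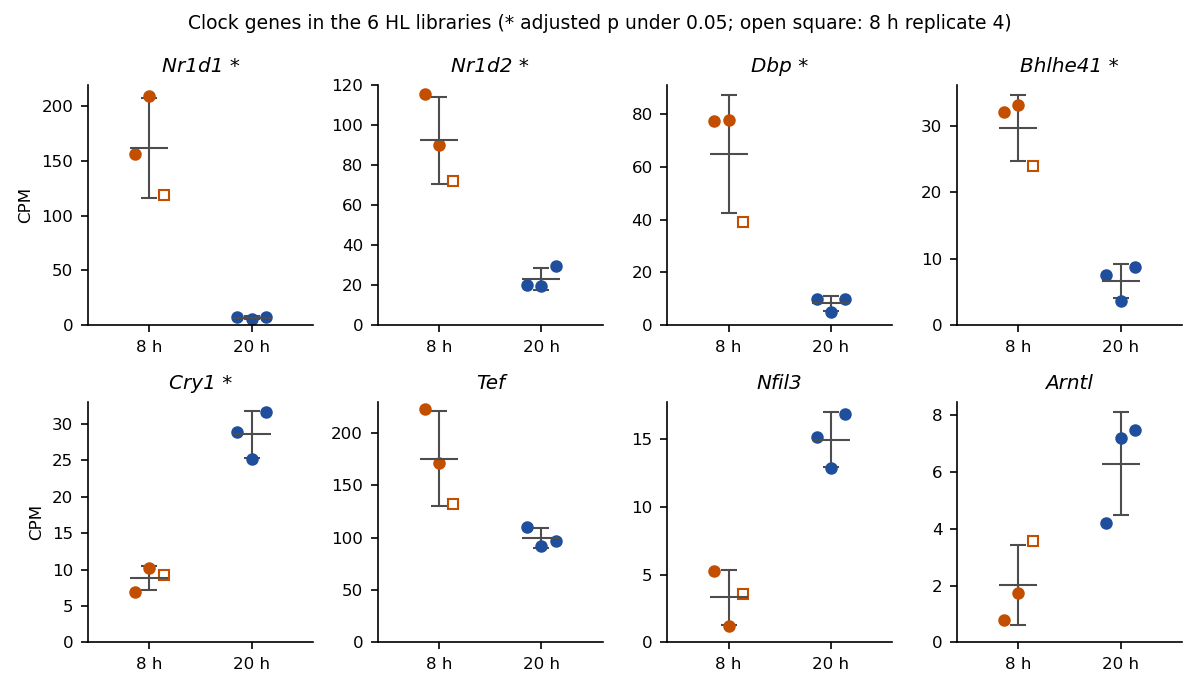
CPM of 8 clock genes in each of the 6 HL libraries by number at 8 h (orange) and 20 h (blue), with the mean and SD of each set. Open squares are 8 h replicate 4, asterisks mark the 5 genes with an adjusted p under 0.05, and the sets overlap in none of the 8 panels, which leave out clock genes whose sets overlap (of all genes tested, 9.51% were higher at 8 h and 6.3% at 20 h without overlap).

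Of the output factors, Dbp (ENSMUSG00000059824, chromosome 7, 45705088 to 45710203, plus strand) passed. It stood at 77.5, 77.7 and 38.9 CPM at 8 h and at 9.86, 4.95 and 10.1 CPM at 20 h. 8 h replicate 4 was the lowest of its set, and the sets did not overlap. The log2 fold change was 2.91 (standard error 0.30, adjusted p = 0.00235, edgeR's quasi-likelihood test) and 3.16 without 8 h replicate 4. Tef, a second PAR bZIP factor, was at 223.1, 171.6 and 132.0 CPM and at 109.9, 92.0 and 96.5 CPM. Its log2 fold change of 0.79 (standard error 0.19) did not pass with all 6 libraries (adjusted p = 0.260) and passed without 8 h replicate 4 (0.95, adjusted p = 0.00104). Nfil3, which competes with the PAR bZIP factors for the D-box, was at 5.27, 1.22 and 3.55 CPM at 8 h and at 15.2, 12.9 and 16.9 CPM at 20 h. Here too the sets did not overlap, the log2 fold change was -2.17 (standard error 0.42, adjusted p = 0.149) and the adjusted p without 8 h replicate 4 was 0.0156. The third PAR bZIP factor, Hlf, did not share the pattern of Dbp and Tef. It was at 25.9, 34.3 and 65.0 CPM at 8 h and at 55.3, 38.1 and 78.3 CPM at 20 h, with a log2 fold change of -0.48 (standard error 0.32, adjusted p = 0.706) and of -0.97 (adjusted p = 0.0449) without 8 h replicate 4, both by edgeR's quasi-likelihood test. Of 17 alternative fits, Tef passed in 4, Nfil3 in 5 and Hlf in 2, with the fit without 8 h replicate 4 among them each time.

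None of the 6 activators tested passed, and all 6 log2 fold changes were below 0. Arntl, the gene of BMAL1, was at 0.775, 1.74 and 3.55 CPM at 8 h and at 4.20, 7.18 and 7.47 CPM at 20 h, a low level of 5 to 46 counts. The highest 8 h library lay below the lowest 20 h library, and the log2 fold change was -1.66 (standard error 0.57, adjusted p = 0.447, edgeR's quasi-likelihood test). Without 8 h replicate 4 the log2 fold change of Arntl was -2.35 (adjusted p = 0.0654 in the same test), and Arntl passed in 1 of 17 alternative fits. Rorb had 3.25, 4.35 and 1.42 CPM at 8 h and 9.13, 7.18 and 7.15 CPM at 20 h (log2 fold change -1.40, standard error 0.45, adjusted p = 0.406). Clock, the partner of BMAL1, had 51.9 to 66.5 CPM at 8 h and 59.4 to 80.1 CPM at 20 h, and Rora had 140.2 to 173.1 and 163.1 to 191.8 CPM, so that both overlapped (log2 fold changes -0.27 and -0.23, standard errors 0.17 and 0.15). The paralogs Arntl2 and Npas2 were at or below 4.55 CPM in every library, and each was absent from 1 library.

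Genes for proteins that modify and degrade clock components did not pass. Among the kinases Csnk1d, Csnk1e and Gsk3b and the ubiquitin ligase subunits Fbxw11 and Btrc, the log2 fold changes ran from -0.25 to 0.39. The largest was that of Fbxw11, with 69.9, 84.7 and 76.4 CPM at 8 h and 61.3, 61.9 and 50.2 CPM at 20 h (adjusted p = 0.543, edgeR's quasi-likelihood test). None of the 9 direct clock targets tested passed either. Their log2 fold changes ran from -0.58 (Usp2, a deubiquitinase) to 0.52 (Per2, which is also counted among the repressors), with a median of 0.05, and of -0.14 without 8 h replicate 4. Wee1, a kinase that delays mitosis, was at 14.3, 13.2 and 12.8 CPM at 8 h and at 16.4, 14.6 and 13.5 CPM at 20 h. Nampt, of NAD synthesis, was at 18.6, 12.7 and 35.2 CPM and at 23.7, 22.8 and 29.6 CPM, and Tspan4, a tetraspanin, at 68.6, 87.3 and 69.3 CPM and at 66.8, 65.3 and 60.9 CPM. Only Tspan4 of these 3 had sets that did not overlap.

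The promoters of the genes that passed were searched for 3 motifs of the clock on both strands, the E-box CACGTG, the core of the ROR and REV-ERB element AGGTCA and the D-box TTATGTAA. The windows were those of RefSeq in GRCm38.p6, from 250 bases before to 50 bases after the transcription start. Bhlhe41 and Cry1 held the E-box and Nr1d2 held the ROR element core, and none of the motifs was found in the windows of Nr1d1 and Dbp. Of all 32851 windows 7.15% held the E-box, 16.3% the ROR element core and 0.938% the D-box. Among the 28 tested clock genes with a window, 6 held the E-box (Bhlhe41, Ciart, Cry1, Per1, Tef and Tspan4), 6 the ROR element core (Arntl, Clock, Nampt, Nfil3, Nr1d2 and Per1) and 1 the D-box (Per3). The 250 bases before the start of the 3 genes with a match are shown because Bhlhe41 and Cry1 hold the same E-box and had opposite signs in this comparison. They are written 5′ to 3′ on the strand of the gene with the motif in capitals, which begins 153 bases before the start in Bhlhe41 (chr6:145865421-145865670, minus strand), 60 bases in Cry1 (chr10:85185055-85185304, minus strand) and 77 bases in Nr1d2 (chr14:18239107-18239356, minus strand).
Bhlhe41: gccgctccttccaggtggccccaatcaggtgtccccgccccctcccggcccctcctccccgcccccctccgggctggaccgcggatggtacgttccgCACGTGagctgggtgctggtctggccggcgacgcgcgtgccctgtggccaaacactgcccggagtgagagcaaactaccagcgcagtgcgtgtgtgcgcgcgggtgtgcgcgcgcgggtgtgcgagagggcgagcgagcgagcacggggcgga
Cry1: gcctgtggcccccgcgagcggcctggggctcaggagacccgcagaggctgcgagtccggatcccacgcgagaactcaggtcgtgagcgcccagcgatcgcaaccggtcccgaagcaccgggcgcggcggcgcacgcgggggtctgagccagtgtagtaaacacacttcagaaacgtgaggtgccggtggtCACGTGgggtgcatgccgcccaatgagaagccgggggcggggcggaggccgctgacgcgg
Nr1d2: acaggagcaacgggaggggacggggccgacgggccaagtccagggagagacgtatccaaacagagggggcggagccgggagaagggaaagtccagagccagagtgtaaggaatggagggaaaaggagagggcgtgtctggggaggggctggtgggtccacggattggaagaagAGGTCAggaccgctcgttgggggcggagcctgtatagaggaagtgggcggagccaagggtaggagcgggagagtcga

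Placed in the course of HL by number over all 6 collections (19 libraries, 3 or 4 per collection), 8 h was the time with the highest mean of Nr1d1, Nr1d2 and Bhlhe41 and with the lowest mean of Cry1 and Nfil3. Nr1d1 had means of 11.3, 54.6, 161.7, 84.8, 23.2 and 6.97 CPM at 0, 4, 8, 12, 16 and 20 h, so that 20 h was its lowest mean. For Nr1d2 the mean at 8 h, 92.4 ± 21.8 CPM (SD, n = 3), and that at 12 h, 90.5 ± 6.65 CPM (SD, n = 4), lay within the spread of the libraries. Dbp was highest at 12 h, at 78.1 ± 26.5 CPM (SD, n = 4), a difference from its 64.7 ± 22.3 CPM at 8 h that was also within that spread. Cry1 had means of 20.7 CPM at 0 h and 8.83 CPM at 8 h and stood at 28.3 and 28.6 CPM at 16 and 20 h, and Nfil3 had 16.6 CPM at 0 h, 3.35 CPM at 8 h and 14.97 CPM at 20 h. Per2 was at 4.07 ± 1.75 CPM at 8 h, 8.45 ± 3.71 CPM at 12 h and 2.81 ± 1.46 CPM at 20 h (SD, n = 3, 4 and 3), so that its highest mean lay between the times compared. These means are a description and carry no test.

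**Figure D3:**
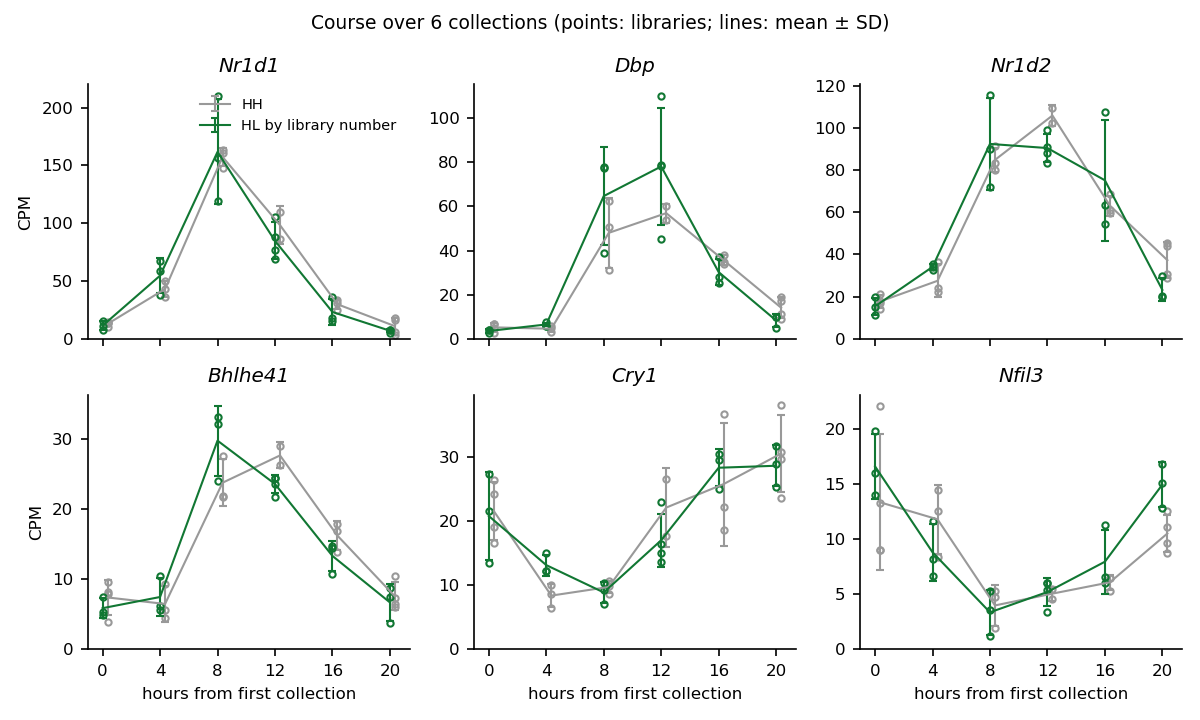
CPM of 6 clock genes by hours from the first collection in HL by library number (green) and in HH (grey), with each library as a point and lines through the means with SD. In HL Nr1d1 has its highest mean at 8 h (161.7 CPM) and its lowest at 20 h (6.97 CPM), and Cry1 its lowest mean at 8 h (8.83 CPM).

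The same contrast was taken in HH, with 3 libraries at 8 h and 4 at 20 h. Of 11507 genes 1 passed (0.00869%), and it was Nr1d1, at 157.4 ± 8.07 CPM (SD, n = 3) at 8 h and 10.9 ± 7.46 CPM (SD, n = 4) at 20 h (log2 fold change 3.74, standard error 0.42, adjusted p = 0.0126, edgeR's quasi-likelihood test). The call was lost when any of the 3 HH libraries at 8 h, or HH replicate 2 at 20 h, was left out. At an unadjusted p of 0.05, 563 genes passed in HH. In HH the log2 fold change of Dbp was 1.65, that of Nr1d2 1.06, that of Bhlhe41 1.54 and that of Cry1 -1.78, with standard errors of 0.31, 0.23, 0.30 and 0.27. The difference between the protocols was tested as an interaction over the 13 libraries. None of 12030 genes passed (0%), with 536 at an unadjusted p of 0.05, and DESeq2 called none. For Nr1d1 the change in HL by number minus that in HH was 0.76 (standard error 0.53), for Cry1 0.05 (standard error 0.34), for Bhlhe41 0.57 (standard error 0.42), for Nr1d2 0.89 (standard error 0.33) and for Dbp 1.26 (standard error 0.48), all at an adjusted p of 0.854 or above by edgeR's quasi-likelihood test. A smaller change in one protocol was therefore not shown for any of the 5 genes, nor were the changes shown to be alike. Rorb, one of several clock genes whose values had opposite signs, was at -1.40 in HL by number and 1.09 in HH, with a difference of -2.49 (standard error 0.72, unadjusted p = 0.0031, adjusted p = 0.854 in the same test).

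The 5 genes with the smallest p for the difference between protocols included no clock gene. Trp53rkb, a p53-related kinase gene, had mean levels of 7.45 CPM at 8 h and 1.597 CPM at 20 h in HL by number and of 2.33 and 4.72 CPM in HH. Its difference of log2 fold changes was 3.32 (standard error 0.87, adjusted p = 0.854, edgeR's quasi-likelihood test). Mrpl20, a protein of the mitochondrial ribosome, had 52.9 and 27.6 CPM in HL and 41.6 and 43.8 CPM in HH, Eef1akmt3, a lysine methyltransferase of a translation factor, 10.2 and 4.43 CPM against 6.16 and 8.27 CPM, S100a13, a calcium-binding protein, 115.4 and 72.4 CPM against 90.04 and 117.3 CPM, and Reep4, an endoplasmic reticulum protein, 23.5 and 13.4 CPM against 17.2 and 26.2 CPM. Each had its higher mean at 8 h in HL and at 20 h in HH, and none passed.

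When the same times of HL were taken by sample title, which puts other libraries in the 8 h and 20 h sets (3 and 4) and none of these 6, 0 of 11500 genes passed (0%). At an unadjusted p of 0.05, 861 passed, and DESeq2 called 12 genes higher at 8 h and 21 higher at 20 h. None of the clock genes passed by title in edgeR's quasi-likelihood test, and the values of Nr1d1, Nr1d2, Bhlhe41 and Dbp then had the other sign. Nr1d1 had 24.1 ± 13.8 CPM (SD, n = 3) at 8 h and 71.4 ± 33.6 CPM (SD, n = 4) at 20 h, and Dbp had 6.97 ± 1.43 and 52.5 ± 32.5 CPM. The log2 fold changes by title were -1.71 for Nr1d1, -1.68 for Nr1d2, -1.33 for Bhlhe41, -3.02 for Dbp and -0.50 for Cry1, with standard errors of 0.44, 0.34, 0.36, 0.45 and 0.43. All 10 repressors were below 0 by title, whereas by number 8 were above and 2 below.

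**Figure D4:**
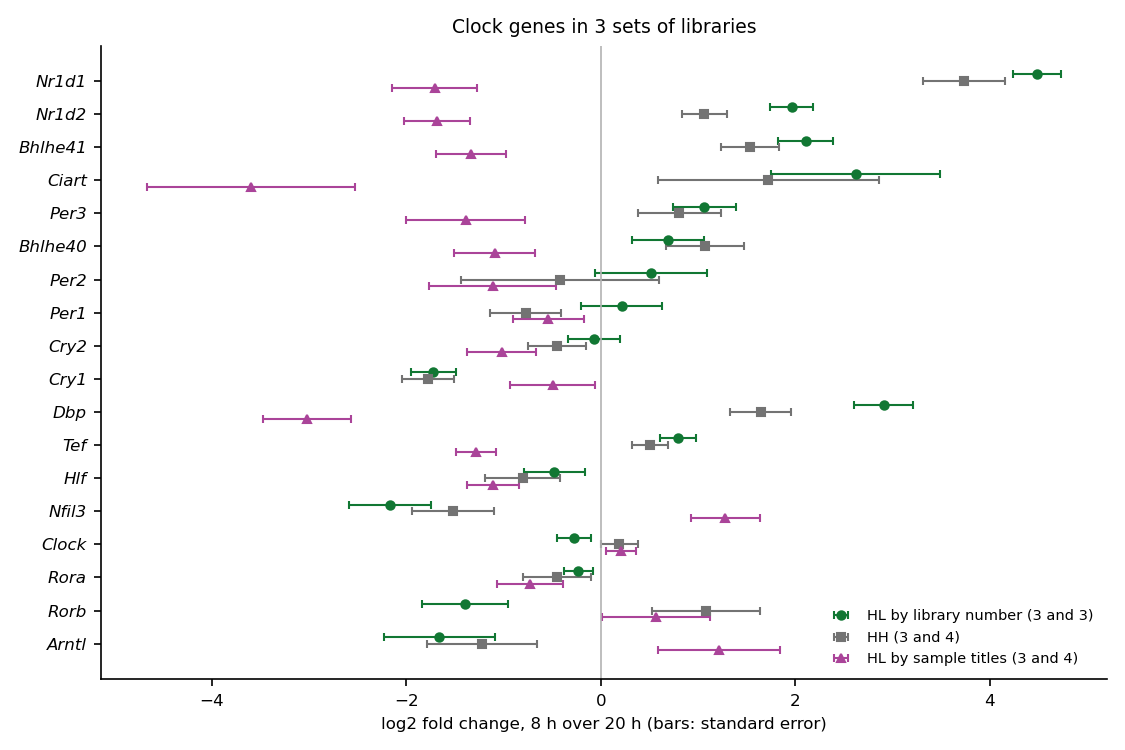
Log2 fold change of 8 h over 20 h with its standard error for 18 clock genes in HL by library number (circles), HH (squares) and HL by sample titles (triangles). Nr1d1 stands at 4.49, 3.74 and -1.71, and Cry1 at -1.72, -1.78 and -0.50.

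Apart from the clock, the genes of mitosis were the list with the largest median. All 25 tested of 26 listed had a log2 fold change above 0, from 0.27 to 3.72 with a median of 1.71 beside 0.0024 for all genes, and in 20 of them the sets did not overlap, with all 8 h libraries higher, as for 9.51% of all genes tested. None passed with all 6 libraries, at a smallest adjusted p of 0.0774, and 8 of 23 passed as higher at 8 h without 8 h replicate 4, beside 0.376% of all genes in that fit. The summed level of the 26 genes was 609.5, 350.4 and 470.9 CPM in 8 h replicates 1, 2 and 4 and 229.8, 236.3 and 232.1 CPM at 20 h. The 3 libraries at 20 h lay close together, and those at 8 h were all above them and spread widely. Cdc20, an activator of the anaphase-promoting complex, was at 22, 13.6 and 19.9 CPM at 8 h and at 3.65, 3.96 and 6.17 CPM at 20 h (log2 fold change 1.97, standard error 0.32, adjusted p = 0.0774, edgeR's quasi-likelihood test). Mki67, the proliferation marker Ki-67, was at 19.4, 16.7 and 19.7 CPM and at 5.29, 7.67 and 6.66 CPM (log2 fold change 1.49, adjusted p = 0.130). Kif2c, a kinesin of the centromere that was named for its fold change after the values were seen and had 1 to 3 counts in each 20 h library, was at 7.90, 3.48 and 4.798 CPM and at 0.183, 0.495 and 0.487 CPM. Without 8 h replicate 4, Cdc20, Plk1, Top2a, Mki67, Nusap1, Cenpf, Aspm and Tpx2 passed, at adjusted p of 0.00935 to 0.0479. In HH the same 25 genes were also all above 0, with a median of 1.29 beside -0.025 for all genes, 19 at an unadjusted p of 0.05 beside 563 of all 11507 genes, and none past the adjusted threshold. In HL by sample title, 23 of the 25 were above 0, with a median of 0.53 beside -0.0056 for all genes. The genes of DNA replication were closer to all genes, with a median of 0.24 over 24 tested, 17 above and 7 below 0, and a median of 0.097 without 8 h replicate 4. The 2 with the smallest p were Tk1, thymidine kinase, at 11.3, 2.96 and 11.6 CPM and at 1.10, 1.73 and 2.27 CPM, and Mcm7, a subunit of the replicative helicase, at 101.2, 138.5 and 153.5 CPM and at 100, 98.7 and 77.5 CPM. In bulk RNA, more dividing cells and more of these transcripts per cell cannot be told apart.

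**Figure D5:**
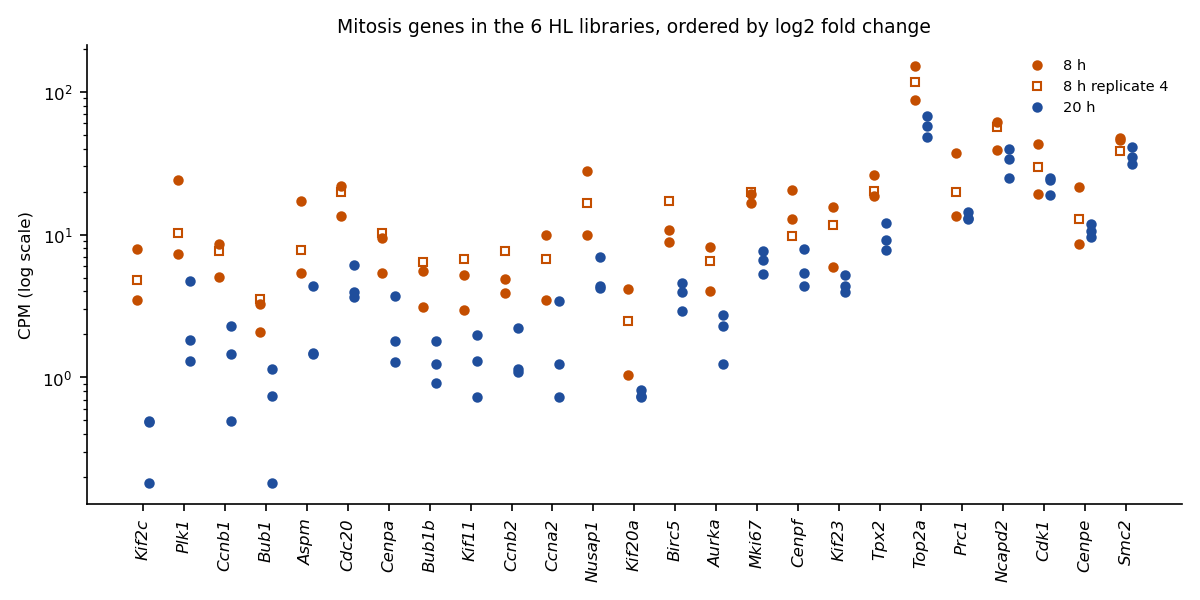
CPM on a log scale of the 25 tested mitosis genes in each of the 6 HL libraries by number, at 8 h (orange, with 8 h replicate 4 as open squares) and 20 h (blue), ordered by log2 fold change. For 20 of the genes, all 8 h points lie above all 20 h points.

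Besides the 5 genes that passed, the genes with the smallest p and a mean of at least 10 CPM at one of the times are given here, although none passed with all 6 libraries. On the side of 8 h, these were Cdc20, Mki67, Hmmr, a hyaluronan receptor that also acts on the spindle, Cdca3, Ube2c, which conjugates ubiquitin for the anaphase-promoting complex, the histones H2afz and Hist1h1e, and Mrpl20. Hmmr was at 10.7, 10.3 and 13.9 CPM at 8 h and at 2.37, 2.97 and 2.599 CPM at 20 h (log2 fold change 2.11, adjusted p = 0.106, edgeR's quasi-likelihood test). Hist1h1e, a linker histone, was at 130.3, 170.7 and 214.3 CPM and at 67.0, 87.3 and 96.5 CPM (log2 fold change 1.02, adjusted p = 0.183). Without 8 h replicate 4, Hmmr, Cdca3, Ube2c, Mrpl20 and Hist1h1e passed and H2afz did not (adjusted p = 0.0578).

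On the side of 20 h, the genes with the smallest p after Cry1 were Smoc2, Angptl4, Aldh1a1, Smpdl3b, Nfil3, Pcsk6, Ifi205, Syne1, mt-Nd4, Dact1 and Stc2. Smoc2, a calcium-binding protein of the matrix, was at 117.9, 104.5 and 96.7 CPM at 8 h and at 183.6, 175.4 and 198.0 CPM at 20 h (log2 fold change -0.83, standard error 0.15, adjusted p = 0.129, edgeR's quasi-likelihood test). Angptl4, a secreted inhibitor of lipoprotein lipase, was at 10.2, 12.5 and 12.1 CPM and at 34.7, 25.5 and 23.2 CPM (log2 fold change -1.28, adjusted p = 0.130), and Aldh1a1, which makes retinoic acid, at 22.3, 18.6 and 14.8 CPM and at 38.3, 33.7 and 44.3 CPM (log2 fold change -1.09, adjusted p = 0.145). The mitochondrial gene mt-Nd4, a subunit of complex I, was at 3103, 2766 and 2743 CPM and at 5756, 4438 and 4234 CPM (log2 fold change -0.77, adjusted p = 0.242). Of the 12 mitochondrial genes tested, 6 were below 0 and none passed. Without 8 h replicate 4, Smoc2, Angptl4, Aldh1a1, Smpdl3b, Nfil3, Pcsk6, Syne1, mt-Nd4 and Stc2 passed, and Ifi205 and Dact1 did not (adjusted p = 0.0566 and 0.059).

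The matrix genes changed their summary with the library that stood apart. The 16 collagen genes tested had a median log2 fold change of -0.07 with all 6 libraries, 7 above and 9 below 0 and none called, and of 0.25 without 8 h replicate 4, with 2 called higher at 8 h (Col1a1 and Col3a1) and 1 higher at 20 h (Col12a1), beside 0.376% and 0.421% of all genes in that fit. In HH 15 of the 16 were above 0, with a median of 0.38 beside -0.025 for all genes. By sample title 14 of the 16 were above 0, with a median of 0.39 beside -0.0056 for all genes. Col1a1 was at 7876, 6766 and 3451 CPM at 8 h and at 4834, 5185 and 5329 CPM at 20 h, so that 8 h replicate 4 lay below and the other 8 h libraries above all 20 h libraries. Col12a1, a collagen that associates with fibrils, was at 181.0, 185.7 and 114.8 CPM and at 286.2, 256.6 and 287.5 CPM (log2 fold change -0.81, adjusted p = 0.249, edgeR's quasi-likelihood test), and Col5a3 at 17.7, 15.7 and 10.1 CPM and at 4.38, 11.4 and 7.15 CPM. The 21 matrix glycoproteins and crosslinking enzymes tested had a median of -0.24, and of -0.11 without 8 h replicate 4. Among them Lox, lysyl oxidase, was at 1192, 1226 and 1043 CPM and at 809.4, 804.6 and 766.4 CPM. Its log2 fold change was 0.51 (standard error 0.15), with an adjusted p of 0.406 and, without 8 h replicate 4, of 0.024. Spon2, a matrix protein, was at 33.8, 17.4 and 21.2 CPM and at 9.67, 14.6 and 8.93 CPM (log2 fold change 1.11, adjusted p = 0.396).

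Genes through which glucose and insulin act were not called in either direction, with or without 8 h replicate 4. Txnip and Arrdc4, arrestin-like genes that the glucose sensor MondoA induces, had 65.5, 47.6 and 43.7 against 88.7, 49.0 and 73.6 CPM and 3.56, 2.09 and 3.02 against 0.913, 3.22 and 0.325 CPM, and both overlapped. The medians of 15 genes of glycolysis and of 12 genes of insulin and FOXO signalling were 0.03 and -0.16, and -0.05 and -0.09 without 8 h replicate 4. Pik3r1, the regulatory subunit of PI3-kinase, had the smallest p of the latter, at 89.2, 76.1 and 44.6 CPM and at 94.4, 120.0 and 83.5 CPM (adjusted p = 0.562, edgeR's quasi-likelihood test). Of 23 genes of sterol and fatty acid synthesis 18 were above and 5 below 0, with a median of 0.18. Their smallest p was that of Sqle, squalene epoxidase, at 187.0, 164.8 and 184.8 CPM and at 113.5, 119.8 and 141.9 CPM (log2 fold change 0.49, standard error 0.15, adjusted p = 0.406), and Fdps, farnesyl diphosphate synthase, was next at 246.8, 215.5 and 218.0 CPM and 135.6, 165.0 and 183.7 CPM. The sets did not overlap for either.

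No gene passed with all 6 libraries in the lists of stress and signal responses. Of 12 immediate early genes, which serum and growth factors switch on within minutes, 6 were above and 6 below 0, and the smallest p was that of Egr3, at 3.10, 7.66 and 3.91 CPM at 8 h and at 13.9, 11.6 and 16.6 CPM at 20 h (log2 fold change -1.55, adjusted p = 0.260, edgeR's quasi-likelihood test). The median log2 fold changes were -0.16 for 15 targets of SRF and actin, 0.21 for 13 genes of the ATF4 and amino acid response, -0.11 for 10 heat shock chaperones, -0.08 for 14 chaperones of the endoplasmic reticulum, 0.09 for the cold-inducible RNA binding proteins Cirbp and Rbm3, and -0.09 for 11 glucocorticoid and KLF genes. The medians of the SRF and ATF4 lists had the other sign without 8 h replicate 4, at 0.02 and -0.05, those of the heat shock and endoplasmic reticulum chaperones were then -0.06 and -0.04, and that of Cirbp and Rbm3 was 0.23. Herpud1, of the endoplasmic reticulum stress response, was at 126.3, 116.9 and 169.0 CPM and at 88.5, 68.0 and 104.1 CPM (log2 fold change 0.64, adjusted p = 0.406), without overlap. Several of these values rested on 8 h replicate 4. Psat1, of serine synthesis, was at 75.6, 86.2 and 223.5 CPM at 8 h and at 63.3, 87.6 and 114.7 CPM at 20 h, with a log2 fold change of 0.52 that became -0.17 without this library, and Sgk1, a kinase induced by glucocorticoids, was at 77.6, 90.6 and 194.4 CPM and at 72.1, 71.3 and 107.7 CPM, with 0.51 and -0.03.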

How the data were processed

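RNA of Per2::Luc fibroblasts was sequenced by 3′DGE. Per the labels, the submitters' processing notes name bcl2fastq, STAR 2.6.0a, HTSeq 0.9.1 and mm10. The authors deposited raw counts per gene of uniquely aligned reads for each of 121 sequencing runs of 62 libraries, with 31053 Ensembl identifiers, of which 30934 matched GENCODE M21. The strand setting and the annotation used for counting are not given in these sources. HTSeq's lines for reads without a gene were excluded (19.5% to 28.9% of reads on no feature in the 6 libraries).

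Runs of a library were summed, and groups were taken by library number and read summary name. Genes that reached 1 CPM in 3 or more of the libraries compared were tested with edgeR 4.0.16 (quasi-likelihood, TMM, Benjamini-Hochberg over all genes tested, threshold 0.05) in R 4.3.3. The standard errors given were derived as the absolute log2 fold change divided by the square root of the quasi-likelihood F. DESeq2 1.42.0, other scaling, filters, runs, thinning, leaving out libraries and replicate blocks were alternatives. Simulated 2-fold changes in 200 of 11358 genes were called for 72, with 4 false calls. Totals of 4041518 to 6454806 counts limit precision for low genes, and floors cover counting error only. The comparison, its members and all lists were chosen with earlier results of these data known. The genes named were the tested clock genes, up to 12 per direction of at least 10 CPM, 2 per other list by smallest p, and 5 for the difference between protocols. Symbols, positions and transcript lengths are from GENCODE M21 (GRCm38). Results of some genes are not reported here.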

Additional observations from a re-analysis of the deposited data

How the results depend on the processing

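Direction was kept for Nr1d1, Nr1d2, Dbp, Bhlhe41 and Cry1 in all 17 alternatives run for HL by number, and Nr1d1 passed in all 17 (log2 fold change 4.15 to 4.69, adjusted p at most 0.0305 in edgeR or DESeq2). The counts of genes higher at 8 h and at 20 h, 4 and 1, moved more. They were 27 and 19 in DESeq2, 57 and 74 with no filter, 20 and 5 with all libraries by number in 1 model (Cry1 not among the 5, adjusted p = 0.0979 in edgeR), and 3 and 0 in the second run alone, and they ranged from 2 to 42 and from 0 to 47 when 1 library was left out, with the highest counts without 8 h replicate 4 and the cause of the other changes not tested. Deviations from the set means were correlated between libraries of the same replicate number, at 0.034 and 0.095 by the read summary and -0.083 and -0.068 by titles. With 2 pairs each, and an 8 h mean that includes 8 h replicate 4, these values cannot tell whether the libraries were paired. With the replicate block of the read summary numbers, in which only replicates 1 and 2 have partners, the counts were 153 and 206, and with the block by titles 1 and 0. In HH, with 1 and 0 genes, the counts were 9 and 2 in DESeq2, 4 and 2 with no filter, 3 higher at 20 h with the replicate block, and 0 to 1 and 0 when 1 library was left out. For HL by titles, with 0 and 0, they were 12 and 21 in DESeq2, 8 and 18 with no filter, 10 and 8 with the replicate block, and 0 to 7 and 0 to 12 when 1 library was left out. For the difference between protocols, 3 genes were larger in HL with no filter, and 0 genes passed with the replicate block. Depth limits genes near 1 CPM, which have 4 to 6 counts per library.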

Other observations

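Genes induced by interferon were not in the lists of the report, and the following 25 were chosen after their values were seen, so their counts carry no weight as a test. Of 23 tested in HL by number, 3 were above and 20 below 0, with a median log2 fold change of -0.32 and none called with all 6 libraries. Without 8 h replicate 4 the median was -1.23 and 13 were called higher at 20 h, beside 0.421% of all genes tested in that fit, among them Ifit1, Ifit3, Isg15, Usp18 and Slfn9. The summed level of the list was 555.1 and 620.6 CPM in 8 h replicates 1 and 2, 1636 CPM in 8 h replicate 4, and 903.0, 1127 and 1331 CPM at 20 h. Ifit3, an antiviral protein, was at 30.1 and 27.7 CPM in 8 h replicates 1 and 2, at 130.8 CPM in 8 h replicate 4 and at 54.9, 80.2 and 106.2 CPM at 20 h. 8 h replicate 4 was thus the highest of the 6 libraries in this group, while in Nr1d1, Dbp and Nr1d2 it lay with the other 8 h libraries. In HH the median of the 23 genes was -0.99, with 11 at an unadjusted p of 0.05, beside 563 of all 11507 genes, and none past the adjusted threshold.

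Of the 89 genes called without 8 h replicate 4, 85 had the same sign with all 6 libraries. Further genes among the 89, named after their values were seen, were Tubb5, a tubulin, at 1950, 2073 and 1886 CPM at 8 h and 1373, 1314 and 1399 CPM at 20 h, Lgals1, galectin-1, at 2746, 3135 and 3145 CPM and 1877, 1990 and 2044 CPM, and Cerkl, at 0.310, 0.174 and 1.24 CPM and 3.65, 4.70 and 2.599 CPM. In these 3 genes 8 h replicate 4 did not overlap with the 20 h libraries either. Npy1r, a receptor of neuropeptide Y, was at 365.5 and 434.6 CPM in 8 h replicates 1 and 2, at 1481 CPM in 8 h replicate 4, and at 622.0, 517.1 and 1047 CPM at 20 h. In this gene 8 h replicate 4 lay above all 20 h libraries and the other 8 h libraries below them.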
